A study of Homo sapiens with 6 samples.

Results

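A set of p53 target genes, named as those outside apoptosis and CDK inhibitors, was examined in A2780, a human ovarian cancer cell line that carries wild-type p53. Some of its members, such as APAF1, nonetheless act in cell death. The set was 42 named genes, of which 40 had a probe set annotated to their symbol and no other, among 18418 genes in all. Each of the 40 had 1 probe set. BTG2 and FDXR were not among the annotated symbols and were not analysed here. The genes were chosen by symbol and not by their values, but with earlier results of these data known.

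The study measured 6 arrays. Lentivirus delivered the shRNAs, short hairpins made against a single transcript, and RNA was taken 96 hours after infection from cells in medium with 10% serum. One set of 3 arrays concerned BMI1, a subunit of Polycomb repressive complex 1, with the infection BMI1 Ctrl and the hairpins BMI1 shRNA1 and BMI1 shRNA2. The other set concerned the long non-coding RNA FAL-1, with the infection FAL-1 Ctrl, hairpin 1 (FAL-1 shRNA1) and hairpin 2 (FAL-1 shRNA2). Every array, controls included, was of infected cells, and each infection had 1 array. The sources used here do not describe the control viruses, the hairpin sequences or separate cultures. Any p-value reflects only the spread between the 2 hairpins of each target. That spread may be technical and also holds any difference between the hairpins themselves.

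The transcription factor p53 is kept scarce by MDM2, a ubiquitin ligase that p53 itself induces. When p53 is stabilised it binds paired decamer sites in DNA and raises genes for DNA repair, cell cycle arrest, metabolic adjustment and cell death. Polycomb complex 1 silences the CDKN2A locus, whose ARF product holds MDM2 in check.

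Values are log2 probe set summaries, so a difference of 1 is a 2-fold change. The median over all probe sets was 6.94 to 7.09 on each array. BMI1 itself, read by a probe set shared with the readthrough COMMD3-BMI1, was at 26.8% of its control level with BMI1 hairpin 1 and 64.0% with hairpin 2, and FALEC, the gene of FAL-1, was not analysed here. Of the ovarian and epithelial markers, KRT8 was between 9.04 and 11.07 and KRT18 between 8.45 and 9.58. SOX17 was between 7.17 and 7.55, and PAX8, WT1, EPCAM, CDH1 and MUC16 never exceeded 7.05. Of the 5 fibroblast markers, COL3A1, DCN and LUM read 8.90 to 11.33 and COL1A1 8.14 to 8.97. The remaining one, the receptor PDGFRB, read 7.92 in the BMI1 control against 6.69 and 7.09 with its hairpins, and 7.74 in the FAL-1 control against 7.15 and 7.07. It was below both controls on every hairpin array, as 8.04% of all genes were, at mean changes of -1.03 and -0.63, and it did not pass limma's test. The 4 leukocyte markers measured and the 4 endothelial markers stayed between 5.003 and 6.65. KRT8 and KRT19 were highest with FAL-1 hairpin 2, at 11.07 and 8.57 beside 9.28 and 6.72 in its control. The part of these markers in the results below was not tested.

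The p53 target genes were mostly higher in knockdown cells than in control cells, with either target. With both BMI1 hairpins 35 of the 40 were above their control, where 32.9% of all genes were, and 1 of 40 was below with both, where 30.7% of all genes were. With both FAL-1 hairpins 32 of 40 were above their control (37.2% of all genes) and 1 was below (27.7% of all genes). The median log2 change over the 40 genes was 0.42 with BMI1 knockdown and 0.47 with FAL-1 knockdown, beside 0.01 and 0.03 over all genes. By array, the medians were 0.43 and 0.41 for BMI1 hairpins 1 and 2, and 0.32 and 0.66 for FAL-1 hairpins 1 and 2. Hairpins of a target share 1 control array, so the changes of a pair are not independent of each other.

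A comparison that does not depend on the choice of control was also made. In 22 of the 40 genes all 4 hairpin arrays stood above both control arrays, which was so for 9.02% of all genes. In 0 of 40 did all 4 stand below both, beside 8.04% of all genes. When any 1 hairpin array was left out the count was between 22 and 26. Without FAL-1 hairpin 2, the array with the highest p53 target values, it was 22. Such a count can only stay or rise when a hairpin array is left out. It therefore cannot show how far the 22 rest on any 1 hairpin array. A control array held the lowest of the 6 values for 33 of 40 genes (30.7% of all genes), 23 in the BMI1 control and 10 in the FAL-1 control. FAL-1 hairpin 2 held the highest for 25 of 40 (30.7% of all genes). No member had its highest value in a control. The share over all genes was not computed for this, nor for the lowest value in each control alone.

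**Figure D1:**
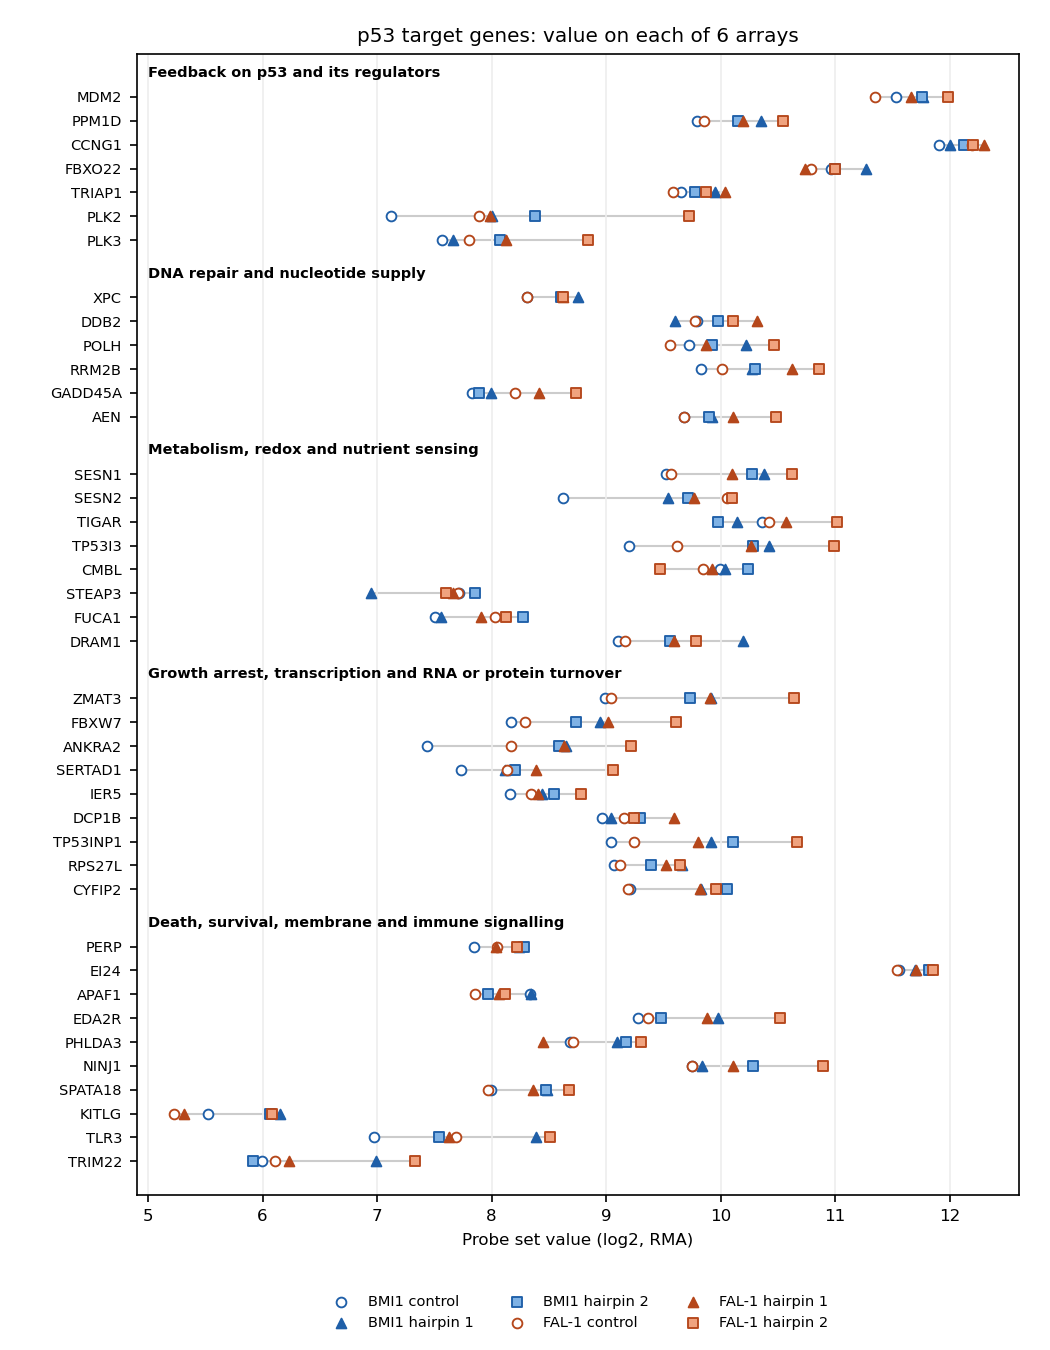
Log2 probe set value (horizontal axis) of each of the 40 p53 target genes on each of the 6 arrays, grouped by role. Open circles are the control arrays, triangles hairpin 1 and squares hairpin 2, in blue for BMI1 and in orange for FAL-1. For 33 of the 40 genes the lowest point is an open circle, and for 25 the highest is the square of FAL-1 hairpin 2. Values of different genes are not comparable, because probes differ.

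No single gene passed a test. In limma, fitted to all 18418 genes, 0 members and 0 genes overall had an adjusted p under 0.05 in any contrast, with 2 residual degrees of freedom. At an unadjusted p under 0.05, 8 of 40 members were higher with BMI1 knockdown (1.03% of all genes, 189 genes) and 9 of 40 with FAL-1 knockdown (1.55%, 286 genes). For the average of both knockdowns it was 16 of 40 (2.35%, 433 genes). No member was lower at that level in these contrasts, where 1.56%, 1.5% and 2.87% of all genes were (288, 277 and 529 genes). The members below are therefore described by their values, given in the order hairpin 1 and hairpin 2. The sign ± gives the SD over n = 2 hairpins of a target.

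The first group holds genes that feed back on p53 and its regulators. All 7 were above their control with both BMI1 hairpins and 6 of 7 with both FAL-1 hairpins. MDM2 read 11.53 in the BMI1 control against 11.77 and 11.75 with its hairpins, and 11.35 in the FAL-1 control against 11.66 and 11.98. All its hairpin arrays were above both controls, by a gap of 0.14 between the lowest hairpin and the highest control. Its mean change was 0.23 ± 0.011 with BMI1 knockdown and 0.48 ± 0.23 with FAL-1 knockdown, and neither passed in limma (adjusted p = 0.9998 and 0.9991). PPM1D, which encodes the phosphatase WIP1 that dephosphorylates p53 and its upstream kinases, stood at 9.79 in the BMI1 control against 10.35 and 10.15 with its hairpins, and 9.86 in the FAL-1 control against 10.20 and 10.54. Its groups did not overlap either, and its changes were 0.46 ± 0.14 with BMI1 knockdown and 0.51 ± 0.24 with FAL-1 knockdown. TRIAP1, a small mitochondrial protein that restrains apoptosis, was at 9.66 in the BMI1 control against 9.95 and 9.77 with its hairpins, and 9.59 in the FAL-1 control against 10.04 and 9.87, with the lowest hairpin value only 0.12 over the higher control.

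The polo-like kinases PLK2 and PLK3 had the widest range over the arrays in this group. PLK2, a stress-induced kinase of centriole duplication, read 7.12 in the BMI1 control against 8.002 and 8.38 with its hairpins, and 7.89 in the FAL-1 control against 7.98 and 9.72. FAL-1 hairpin 2 was the highest array by far, and FAL-1 hairpin 1 was within 0.092 of its control. The 2 controls differed by 0.77, so the mean BMI1 change of 1.07 became 0.30 against the FAL-1 control. PLK3 read 7.57 in the BMI1 control against 7.67 and 8.07 with its hairpins, and 7.80 in the FAL-1 control against 8.13 and 8.84, and the FAL-1 control lay above BMI1 hairpin 1. CCNG1, cyclin G1, which brings a phosphatase to MDM2, showed little difference, at 11.91 in the BMI1 control against 12.01 and 12.12 with its hairpins, and 12.20 in the FAL-1 control against 12.30 and 12.20. Its mean BMI1 change of 0.16 turned to -0.13 against the FAL-1 control. FBXO22, an F-box protein that promotes the turnover of p53 pathway proteins, read 10.96 in the BMI1 control against 11.27 and 10.997 with its hairpins, and 10.79 in the FAL-1 control against 10.73 and 10.999. Its arrays overlapped, and the mean FAL-1 change of 0.074 was -0.095 against the BMI1 control.

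Genes of DNA repair and nucleotide supply formed the second group, in which the nuclease AEN was also placed. All 6 were above their control with both FAL-1 hairpins and 5 of 6 with both BMI1 hairpins, and 4 had all hairpin arrays above both controls. RRM2B, the p53-induced subunit of ribonucleotide reductase that supplies nucleotides for repair, read 9.83 in the BMI1 control against 10.28 and 10.30 with its hairpins, and 10.01 in the FAL-1 control against 10.62 and 10.86. Every hairpin array was above both controls, at mean changes of 0.46 ± 0.019 with BMI1 knockdown and 0.73 ± 0.17 with FAL-1 knockdown. XPC, the damage sensor of nucleotide excision repair, stood at 8.31 in the BMI1 control against 8.76 and 8.60 with its hairpins, and 8.30 in the FAL-1 control against 8.62 and 8.63. Its controls differed by 0.0048, and its changes were 0.37 ± 0.11 with BMI1 knockdown and 0.32 ± 0.0038 with FAL-1 knockdown. POLH, the translesion polymerase eta, read 9.72 in the BMI1 control against 10.22 and 9.93 with its hairpins, and 9.55 in the FAL-1 control against 9.87 and 10.47, and AEN, a nuclease induced by p53, read 9.68 in the BMI1 control against 9.93 and 9.90 with its hairpins, and 9.68 in the FAL-1 control against 10.11 and 10.48. For both genes the hairpin arrays lay above both controls, and FAL-1 hairpin 2 was the highest array.

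DDB2 and GADD45A departed from this pattern. DDB2, which recognises ultraviolet lesions, read 9.79 in the BMI1 control against 9.60 and 9.98 with its hairpins, and 9.78 in the FAL-1 control against 10.31 and 10.11. The BMI1 hairpins lay on either side of their control, and both FAL-1 hairpins were above theirs, at -0.0015 ± 0.26 with BMI1 knockdown and 0.43 ± 0.15 with FAL-1 knockdown. The BMI1 mean of -0.0015 has no direction. GADD45A, a growth arrest gene that also responds to other stresses, read 7.83 in the BMI1 control against 7.99 and 7.89 with its hairpins, and 8.20 in the FAL-1 control against 8.42 and 8.74. Each hairpin array was above its own control, but both BMI1 hairpins were below the FAL-1 control, so its mean BMI1 change of 0.11 was -0.26 against that array.

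Metabolic, redox and nutrient-sensing members were the least uniform group. Of 8 measured, 6 were above their control with both BMI1 hairpins and 4 with both FAL-1 hairpins, and 3 had all hairpin arrays above both controls. TP53I3, a quinone oxidoreductase also called PIG3, read 9.20 in the BMI1 control against 10.42 and 10.28 with its hairpins, and 9.62 in the FAL-1 control against 10.27 and 10.99. It was at least 1.5-fold above its own control with each of the 4 hairpins, at mean changes of 1.15 ± 0.099 with BMI1 knockdown and 1.01 ± 0.51 with FAL-1 knockdown. Its average over both targets, 1.08 or 2.11-fold, was the largest among the 40. DRAM1, a lysosomal membrane protein that promotes autophagy, read 9.11 in the BMI1 control against 10.20 and 9.56 with its hairpins, and 9.16 in the FAL-1 control against 9.59 and 9.79. BMI1 hairpin 1 was its highest array, unlike most members.

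The sestrins differed from each other. SESN1 and SESN2 encode related stress proteins that restrain growth signalling through mTORC1. SESN1 is a classical p53 target, and SESN2 also responds to the amino acid and unfolded protein response. SESN1 read 9.52 in the BMI1 control against 10.38 and 10.27 with its hairpins, and 9.56 in the FAL-1 control against 10.10 and 10.62. Its groups were clear of each other, and the changes of 0.81 ± 0.079 with BMI1 knockdown and 0.80 ± 0.37 with FAL-1 knockdown were nearly equal. SESN2 read 8.62 in the BMI1 control against 9.54 and 9.72 with its hairpins, and 10.06 in the FAL-1 control against 9.77 and 10.10. It was 1.44 lower in the BMI1 control than in the FAL-1 control, and all other arrays lay between those controls or, for FAL-1 hairpin 2, 0.039 above. Its mean BMI1 change of 1.01 was -0.43 against the FAL-1 control, and its FAL-1 change of -0.12 was 1.31 against the BMI1 control. Of the 40 members it alone had an unadjusted limma p under 0.05 for the difference between the targets (adjusted p = 0.9999 in limma), a level reached in that direction by 0.467% of all genes.

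TIGAR and the remaining metabolic genes showed no common direction. TIGAR, a phosphatase that lowers glycolytic flux, read 10.36 in the BMI1 control against 10.15 and 9.98 with its hairpins, and 10.43 in the FAL-1 control against 10.57 and 11.02. Both BMI1 hairpins were below both controls and both FAL-1 hairpins were above both, at -0.30 ± 0.12 with BMI1 knockdown and 0.37 ± 0.32 with FAL-1 knockdown. FUCA1, a lysosomal fucosidase, read 7.50 in the BMI1 control against 7.56 and 8.27 with its hairpins, and 8.03 in the FAL-1 control against 7.91 and 8.13, with BMI1 hairpin 2 apart from hairpin 1. Its mean BMI1 change of 0.41 was -0.11 against the FAL-1 control, and its FAL-1 change of -0.012 was 0.52 against the BMI1 control. STEAP3, a ferrireductase of iron uptake, was -0.77 with BMI1 hairpin 1 and 0.14 with hairpin 2, and -0.043 and -0.11 with the FAL-1 hairpins. CMBL, a hydrolase, was 0.043 and 0.24 from its control with the BMI1 hairpins, and 0.075 and -0.37 with the FAL-1 hairpins. These last 4 genes include the only member below its control with both BMI1 hairpins, TIGAR, and the only one below with both FAL-1 hairpins, STEAP3.

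Genes of growth arrest, transcription and the turnover of RNA or protein were the most uniform group. All 9 measured were above their own control with all 4 hairpins, as 28 of the 40 members and 17% of all genes were, while 0 of 40 members and 14.1% of all genes were below it with all 4. In this group 7 of 9 had all hairpin arrays above both controls. The median average change of the group was 0.71. ZMAT3, an RNA-binding zinc finger protein that mediates part of the tumour suppression by p53, read 8.99 in the BMI1 control against 9.91 and 9.73 with its hairpins, and 9.04 in the FAL-1 control against 9.91 and 10.64. Its lowest hairpin value was 0.70 above its highest control, and the changes were 0.83 ± 0.13 with BMI1 knockdown and 1.24 ± 0.52 with FAL-1 knockdown. CYFIP2, a subunit of the WAVE actin-regulatory complex, read 9.21 in the BMI1 control against 9.82 and 10.05 with its hairpins, and 9.19 in the FAL-1 control against 9.82 and 9.96. Its hairpin arrays lay within a narrow span, at 0.73 ± 0.16 with BMI1 knockdown and 0.70 ± 0.10 with FAL-1 knockdown, and its controls differed by 0.019. With TP53I3, ZMAT3 and CYFIP2 were the only 3 members at 1.5-fold or more with each of the 4 hairpins, a state reached by 0.152% of all genes (28 genes).

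TP53INP1, FBXW7 and ANKRA2 followed. TP53INP1, a stress protein that promotes p53 phosphorylation, read 9.05 in the BMI1 control against 9.92 and 10.10 with its hairpins, and 9.24 in the FAL-1 control against 9.80 and 10.67, at 0.97 ± 0.13 with BMI1 knockdown and 0.99 ± 0.61 with FAL-1 knockdown. FBXW7, the substrate-recognition subunit of a ubiquitin ligase for cyclin E and MYC, read 8.17 in the BMI1 control against 8.94 and 8.74 with its hairpins, and 8.29 in the FAL-1 control against 9.02 and 9.61, at 0.67 ± 0.14 with BMI1 knockdown and 1.02 ± 0.42 with FAL-1 knockdown. In both genes FAL-1 hairpin 2 was the highest array. ANKRA2, an ankyrin-repeat protein, read 7.44 in the BMI1 control against 8.65 and 8.59 with its hairpins, and 8.17 in the FAL-1 control against 8.63 and 9.22. All its hairpin arrays were above both controls, but the controls differed by 0.73, so that the BMI1 change of 1.18 was 0.45 against the FAL-1 control.

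Differences were smaller in the rest of this group. RPS27L, a ribosomal protein paralog that binds MDM2, read 9.07 in the BMI1 control against 9.66 and 9.39 with its hairpins, and 9.12 in the FAL-1 control against 9.52 and 9.65, with equal mean changes of 0.46 ± 0.19 with BMI1 knockdown and 0.46 ± 0.09 with FAL-1 knockdown. IER5, an immediate early gene that acts through heat shock factor 1, read 8.16 in the BMI1 control against 8.44 and 8.54 with its hairpins, and 8.34 in the FAL-1 control against 8.41 and 8.78, and its closest arrays from the 2 groups were 0.067 apart. SERTAD1, a transcriptional coactivator of E2F, and DCP1B, a cofactor of mRNA decapping, were above each own control, by 0.25 to 0.92 and 0.078 to 0.44. Each had 1 or both BMI1 hairpins close to the FAL-1 control, at mean changes of 0.021 and 0.013 against it.

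The last group holds members of death, survival, membrane and immune signalling. Of 10, 8 were above their control with both BMI1 hairpins and 7 with both FAL-1 hairpins, and 4 had all hairpin arrays above both controls. SPATA18, also called Mieap, a protein of mitochondrial quality control, read 7.998 in the BMI1 control against 8.48 and 8.48 with its hairpins, and 7.97 in the FAL-1 control against 8.37 and 8.68. The groups were clearly apart, at 0.48 ± 0.0041 with BMI1 knockdown and 0.55 ± 0.22 with FAL-1 knockdown. EDA2R, a receptor of the tumour necrosis factor family, read 9.28 in the BMI1 control against 9.98 and 9.48 with its hairpins, and 9.37 in the FAL-1 control against 9.88 and 10.52, and NINJ1, which ruptures the plasma membrane of dying cells, read 9.75 in the BMI1 control against 9.84 and 10.28 with its hairpins, and 9.75 in the FAL-1 control against 10.10 and 10.89. In both, FAL-1 hairpin 2 was the highest array and 1 BMI1 hairpin came near the controls. EI24, a protein of the endoplasmic reticulum, read 11.55 in the BMI1 control against 11.69 and 11.81 with its hairpins, and 11.54 in the FAL-1 control against 11.71 and 11.85, a small difference seen in every hairpin array.

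The other genes of this group overlapped between hairpin and control arrays. TLR3, a receptor for double-stranded RNA, read 6.98 in the BMI1 control against 8.38 and 7.54 with its hairpins, and 7.69 in the FAL-1 control against 7.63 and 8.51, and TRIM22, an antiviral ubiquitin ligase, read 5.99 in the BMI1 control against 6.99 and 5.92 with its hairpins, and 6.11 in the FAL-1 control against 6.23 and 7.33. Both are also induced by interferon. In both genes BMI1 hairpin 1 and FAL-1 hairpin 2 were the highest arrays, while BMI1 hairpin 2 and FAL-1 hairpin 1 were within 0.12 of their control for TRIM22. Of 6 interferon response genes measured, chosen after these values were seen, IFIT1, IFIT3, ISG15 and IRF9 were below their control with BMI1 hairpin 1. Their changes there were -0.69, -0.0745, -0.21 and -0.086, and they were above their control with FAL-1 hairpin 2. OAS1 and MX1 differed by at most 0.11 from their control on those arrays. The part of interferon was not tested.

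KITLG, the ligand of the receptor KIT, was the only member with a mean under 6 and was 0.087 to 0.85 above its own control. PERP, a desmosomal protein, read 7.85 in the BMI1 control against 8.24 and 8.28 with its hairpins, and 8.05 in the FAL-1 control against 8.04 and 8.23, and the difference of FAL-1 hairpin 1 from its control was -0.0044. PHLDA3, an inhibitor of AKT, was 0.41 and 0.48 above its control with the BMI1 hairpins, and -0.26 and 0.60 from it with the FAL-1 hairpins. APAF1, the scaffold of the apoptosome, read 8.33 in the BMI1 control against 8.35 and 7.96 with its hairpins, and 7.86 in the FAL-1 control against 8.06 and 8.11. The BMI1 control was 0.48 above the FAL-1 control, and the mean changes of -0.18 and 0.23 became 0.30 and -0.24 against the other target's control.

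**Figure D2:**
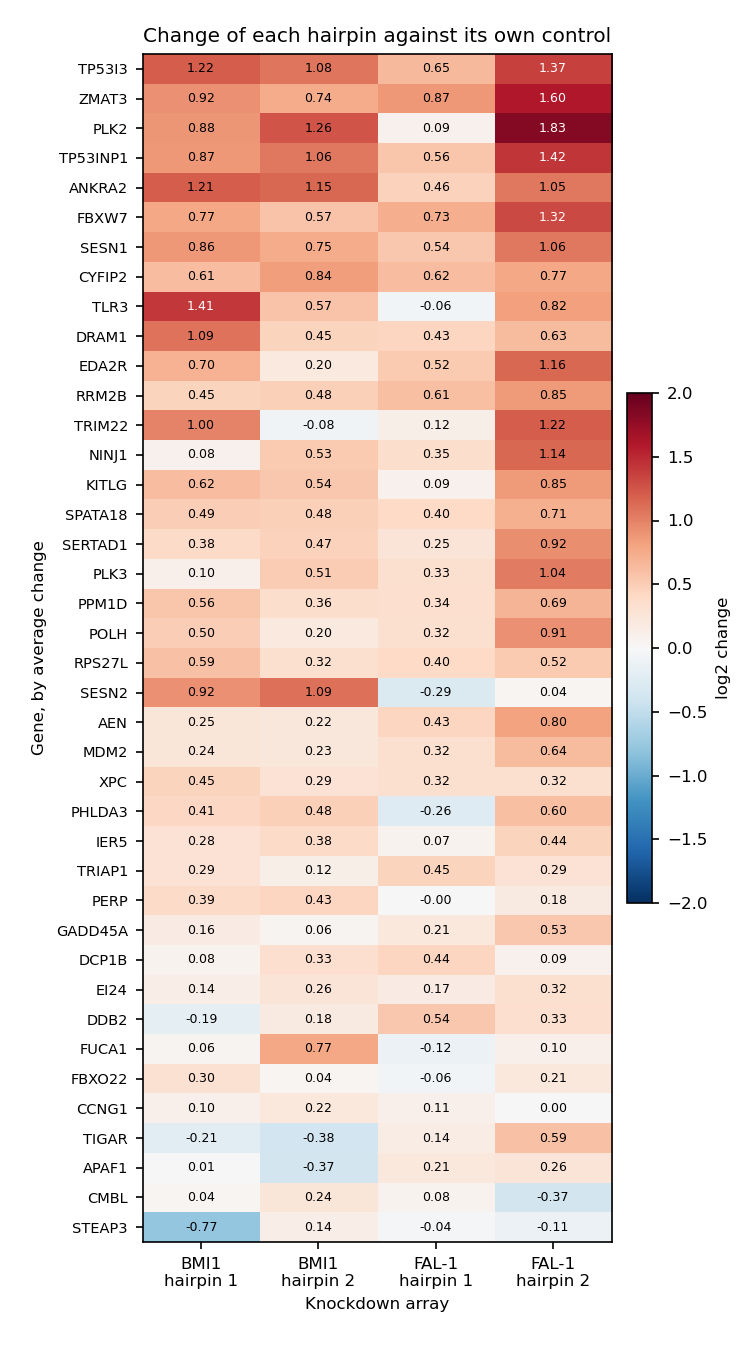
Log2 change of each knockdown array (columns) against the control array of its own target, for the 40 genes (rows) ordered by the average over both targets. Red is above the control and blue below, and each cell prints its value. The strongest colours lie in the FAL-1 hairpin 2 column, up to 1.83 for PLK2, and the few blue cells lie mostly at the foot.

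Large changes were few. With BMI1 knockdown 8 of 40 members were at least 1.5-fold above the control with both hairpins (PLK2, SESN1, SESN2, TP53I3, ZMAT3, ANKRA2, TP53INP1 and CYFIP2), where 0.538% of all genes were. With FAL-1 knockdown the members were 5 (RRM2B, TP53I3, ZMAT3, FBXW7 and CYFIP2), where 0.576% of all genes were. No member was 1.5-fold lower with both hairpins of either target, beside 0.901% and 0.635% of all genes. With BMI1 hairpin 1 alone the count was 15 and with hairpin 2 alone 9. With FAL-1 hairpin 2 alone it was 24, and with hairpin 1 alone 5. Against the BMI1 control the FAL-1 count was 13. The share over all genes was not computed for a single hairpin or for the other control, so these counts have no such comparison.

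The hairpins of a target were then set side by side. FAL-1 hairpin 2 read higher than hairpin 1 in 34 of 40 genes (56.8% of all genes), by a median of 0.34. For BMI1 the gene was higher with hairpin 1, which left less BMI1, in 22 of 40 (43.3% of all genes), and the median of hairpin 2 minus hairpin 1 was -0.02. With 1 array a hairpin this difference was not tested.

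**Figure D3:**
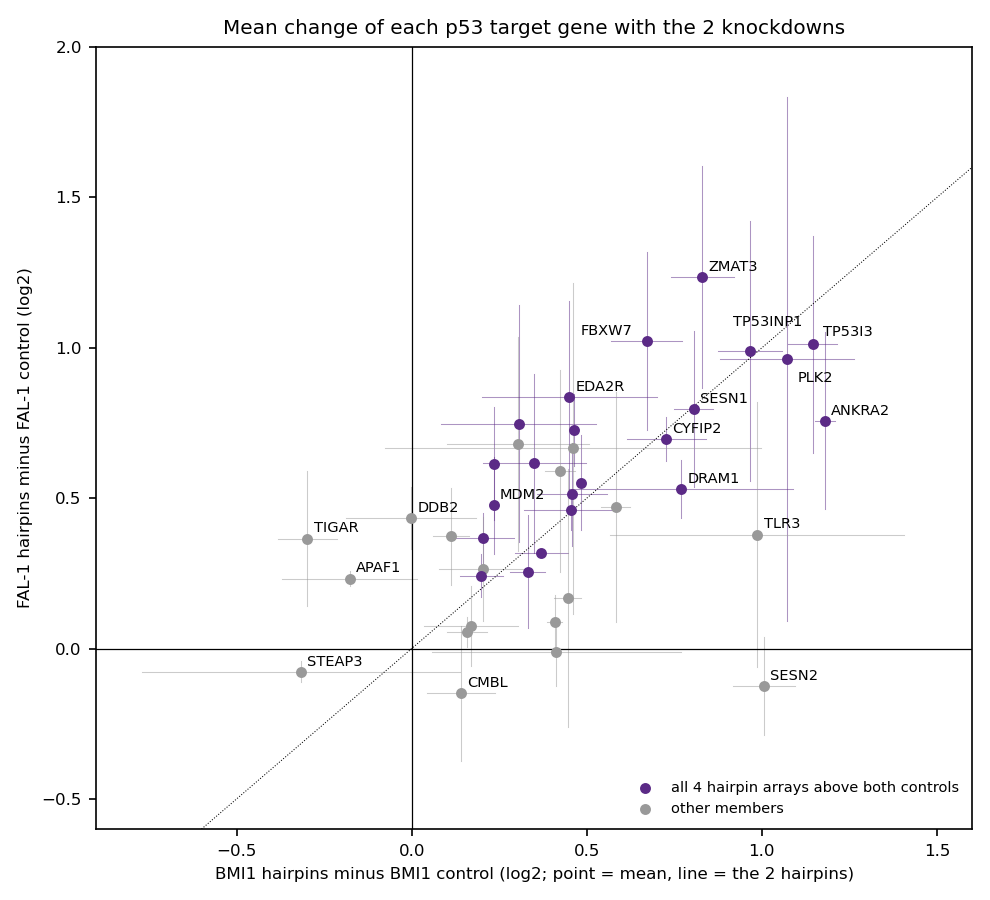
Mean log2 change with BMI1 knockdown (horizontal) against mean log2 change with FAL-1 knockdown (vertical), each against its own control. Each point is 1 of the 40 genes, and the thin lines run between the values of the 2 hairpins. Purple points are the 22 genes with all hairpin arrays above both controls. Most genes lie in the upper right, TIGAR and APAF1 in the upper left, and SESN2 far right just below the horizontal zero line.

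The changes with the 2 targets share no array. Over the 40 genes the mean changes correlated at 0.54 by Pearson and 0.60 by Spearman, and over all 18418 genes at 0.56 and 0.47. Genes share their arrays and do not replicate each other, so this is a description without a p. The value for the members was below that for all genes by Pearson and above it by Spearman, so the 2 measures give no common direction. In limma's contrast of the BMI1 change minus the FAL-1 change, 0 of 40 members and 0 of 18418 genes passed (148 genes at an unadjusted p under 0.05). TP53I3, TP53INP1, SESN1, CYFIP2, RPS27L and XPC differed between targets by at most 0.13 in mean change. So did PPM1D, EI24, DCP1B, SPATA18, IER5, FBXO22, CCNG1, PLK2 and KITLG. The share over all genes was not computed for this limit.

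**Figure D4:**
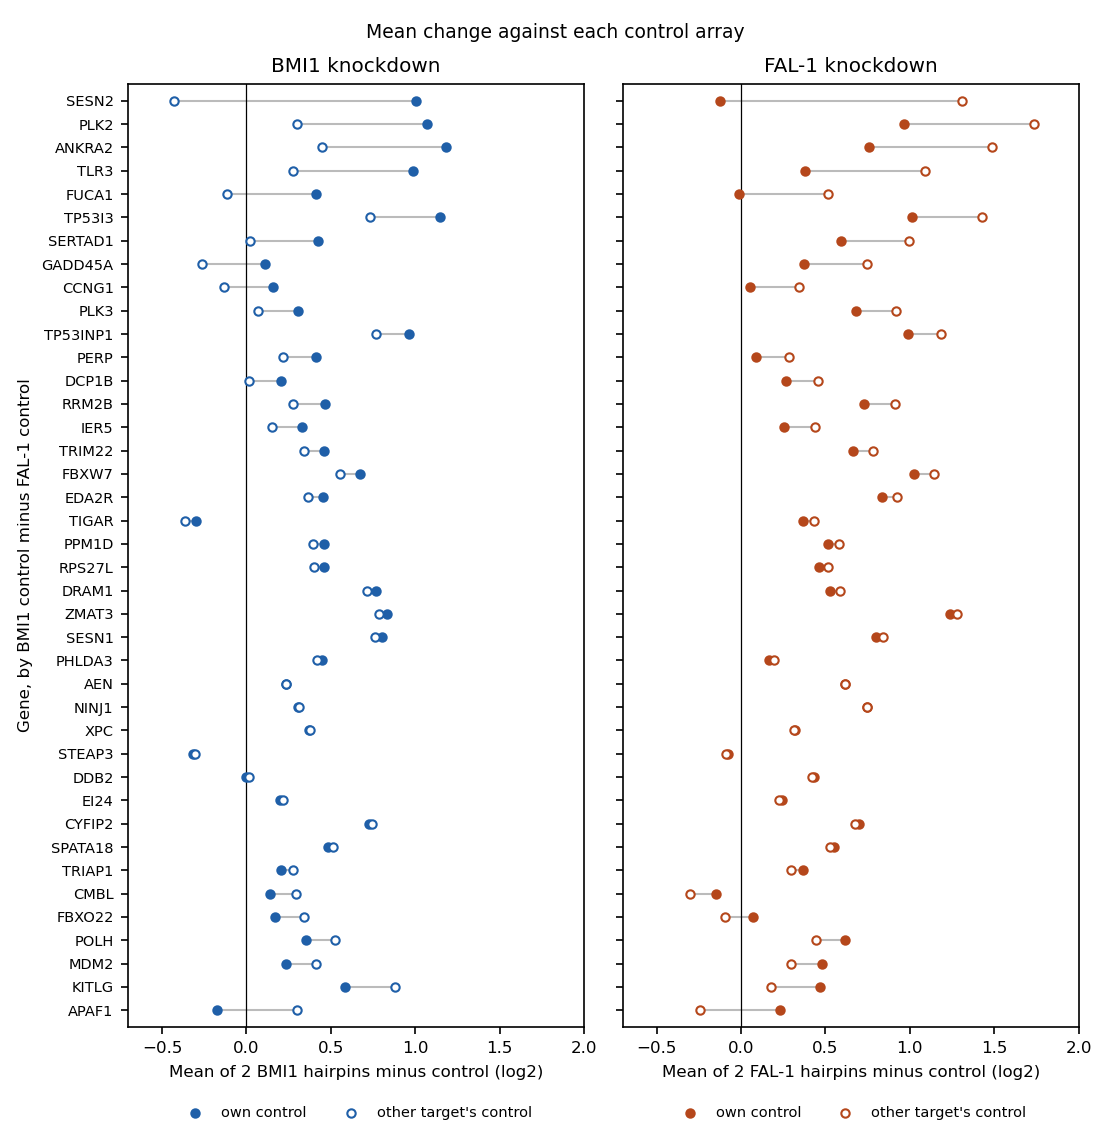
Mean log2 change of the 2 BMI1 hairpins (left) and of the 2 FAL-1 hairpins (right) for each of the 40 genes, against the control of the same target (filled) and that of the other target (open). Genes are ordered by the difference between the control arrays. SESN2, PLK2, ANKRA2 and TLR3, at the top, shift most, and SESN2 crosses the zero line in both panels.

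The control arrays differed for a minority of members. The BMI1 control was below the FAL-1 control in 26 of 40 genes (55.1% of all genes), with a median difference of -0.06, which was -0.0016 after quantile normalization and -0.0063 after cyclic loess. It was at least 1.5-fold lower for PLK2, SESN2, ANKRA2 and TLR3, 4 of 40 beside 1.65% of all genes, and that much higher for 0 of 40 beside 0.901%. Against the other target's control the median change over the 40 genes was 0.31 for BMI1 and 0.55 for FAL-1. The sign of the mean turned for 6 members with BMI1 (28.8% of all genes) and for 4 with FAL-1 (25.5% of all genes), all named above. In ZMAT3, CYFIP2, SESN1, XPC, AEN, SPATA18, NINJ1 and EI24 the controls were within 0.046 of each other. They were also that close in STEAP3, DDB2 and PHLDA3, which did not have all hairpin arrays above both controls.

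Other genes of the pathway were taken from fixed lists of regulators and of other targets. Of 20 regulators of p53 listed, such as the kinases that activate it and the ligases and acetyltransferases that modify it, 18 were measured. 1 of the 18, the acetyltransferase CREBBP, had all hairpin arrays above both controls, beside 9.02% of all genes, and 2, the deubiquitinase USP7 and the MDM2 partner DAXX, had them all below, beside 8.04%. By this rule the shares are near those of all genes. With both BMI1 hairpins 1 of the 18 was above its own control, beside 32.9% of all genes. With both FAL-1 hairpins it was 3 of the 18, beside 37.2%. How many were below with both hairpins of a target was not counted for this list. The median change of the regulators was -0.01 with BMI1 knockdown and -0.12 with FAL-1 knockdown. MDM4, the MDM2 homologue that inhibits p53, read 10.73 in the BMI1 control against 10.76 and 10.72 with its hairpins, and 10.61 in the FAL-1 control against 10.35 and 10.18. The checkpoint kinase CHEK1 read 10.39 in the BMI1 control against 10.23 and 9.96 with its hairpins, and 10.37 in the FAL-1 control against 10.37 and 8.65, low with FAL-1 hairpin 2. No regulator passed limma's test. Of 12 listed targets of p53 outside the members, 6 had all hairpin arrays above both controls, beside 9.02% of all genes. In 0 of the 12 were they all below, beside 8.04%. Their median change was 0.24 with BMI1 knockdown and 0.34 with FAL-1 knockdown. Among them CDKN1A, the gene of the arrest protein p21, read 9.50 in the BMI1 control against 10.34 and 10.65 with its hairpins, and 9.65 in the FAL-1 control against 10.17 and 11.70.

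The DNA around the start sites of the members was searched for a p53 site, because these genes are described as direct targets. RefSeq windows on GRCh38.p14, from 250 bases before to 50 after each start, were at hand for 35 of the 42 genes. A site was taken as a pair of p53 decamers, at most 13 bases apart, with the central CWWG of each intact and at most 3 mismatches over both. The decamer is its own reverse complement, so both strands are covered. Such a site was found in 4 of the 35 genes (11.4%), beside 5.53% of 27305 genes in the table. An exact decamer, whether or not it was part of such a pair, was found in 7 of 35 (20%), beside 8.06%. These 7 include the 4 genes with a site, so the 2 counts are not separate. The 4 sites are shown with the bases before them on the gene's strand, and capitals mark the site.
DDB2, chr11:47214919-47214999, plus strand: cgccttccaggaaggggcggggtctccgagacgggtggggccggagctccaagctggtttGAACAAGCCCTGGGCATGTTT
AEN, chr15:88621246-88621339, plus strand: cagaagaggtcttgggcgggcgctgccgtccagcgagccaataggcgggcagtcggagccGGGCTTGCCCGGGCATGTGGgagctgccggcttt
SESN1, chr6:109008998-109009097, minus strand: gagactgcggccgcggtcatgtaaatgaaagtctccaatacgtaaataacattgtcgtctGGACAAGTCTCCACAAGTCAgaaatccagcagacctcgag
RPS27L, chr15:63157507-63157606, minus strand: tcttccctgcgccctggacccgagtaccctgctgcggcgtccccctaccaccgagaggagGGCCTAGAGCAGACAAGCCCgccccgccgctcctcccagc
The DDB2 site, with 0 mismatches and a spacer of 1 base, starts at base 6 of the transcript. The AEN site has 2 mismatches and lies 34 to 15 bases before the start. The SESN1 site, 49 to 30 bases before, and the RPS27L site, 69 to 50 bases before, have 3 each. RPS27L also held a second pair of decamers with a spacer of 12 and 3 mismatches. Their mean changes with BMI1 and FAL-1 knockdown were -0.0015 and 0.43 for DDB2, 0.24 and 0.61 for AEN, 0.81 and 0.80 for SESN1, and 0.46 and 0.46 for RPS27L. ZMAT3, TP53I3 and CYFIP2, the members at 1.5-fold or more with each hairpin, had no such site in this window, which says nothing of sites elsewhere. A match in sequence is a description and not evidence of binding, and p53 binding was not measured.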

How the data were processed

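Per the labels' protocols, amplified total RNA was turned into labelled cDNA for Affymetrix arrays of 1 colour. The authors deposited 33252 probe sets by 6 arrays. The values are log2 as judged from their range, and per the submitters' processing notes these deposited log2 values involved RMA (background correction, normalization and probe summary). The sources used here do not say with which software, or whether the 2 sets were normalized jointly. An array has no depth, and the number of arrays limits the precision.

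Names came from the platform's annotation, in which, of the probe sets, 19460 had 1 symbol, 1754 several and 12038 were not listed. Those with several were left out, except BMI1's. The brightest probe set stood for each of 769 genes with several, which left 18418 genes. The 6 arrays entered 1 fit with 4 group means (limma 3.58.1, R 4.3.3; lmFit, eBayes, two-sided, Benjamini-Hochberg over all genes at 0.05). The hairpin pairs supply the spread, and a lone control is taken to vary as they do. On simulated data for the BMI1 comparison (18418 genes, 20 runs) the fit called 0% of genes changed 2-fold and 32.4% of those changed 4-fold, with 1.8 false calls a run. Counts of direction and of 1.5-fold changes have no test and stand beside the same count over all genes.

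All measured members are named, with values on every array where the hairpin and control arrays did not overlap, where both hairpins of a target were 1.5-fold apart from the control, or where the other control turned the sign. The members and lists were chosen with earlier results of these data known. Alternatives were the other or pooled controls, other normalizations, the mean of probe sets, a filter at 6, other variance priors, a replicate block, other fold thresholds and leaving out each hairpin array. Figures used matplotlib 3.10.9 (Python 3.11.15).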

Additional observations from a re-analysis of the deposited data

Results flagged for a closer look

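TIGAR was singled out because its values lay on opposite sides of the controls with the 2 targets. Its log2 change was -0.21 and -0.38 with the BMI1 hairpins and 0.14 and 0.59 with the FAL-1 hairpins, each against its own control. The BMI1 change minus the FAL-1 change was -0.66, which did not pass limma's test of the difference (adjusted p = 0.9999). Its controls were alike, at 10.36 and 10.43.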

How the results depend on the processing

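No setting gave a gene past limma's threshold in any contrast. Of the 80 member changes, 64 kept their sign under every alternative run. Only the other or pooled controls, the other normalizations and leaving out a hairpin of the same target could alter a member's mean change. The remaining alternatives leave that mean as it is and could not turn a sign. Counts of members at 1.5-fold moved most: at 1.3-fold they were 17 for BMI1 and 13 for FAL-1, at 2-fold they were 2 and 0, and against the other target's control the FAL-1 count was 13. Leaving out each hairpin array gave 8 to 15 members for BMI1 and 5 to 24 for FAL-1, because a single hairpin is easier to pass than a pair. Leaving out a hairpin array can only keep or raise any count that asks every hairpin to be above a control. For these alternative counts the share over all genes was not computed. The other counts of members stayed within 1.5 times the reported count, and the median change of the members ranged from 0.31 to 0.48 with BMI1 and 0.32 to 0.66 with FAL-1. The median difference between the control arrays, -0.06, shrank to -0.0016 with quantile normalization and -0.0063 with cyclic loess; the cause was not tested.

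Against the other target's control the BMI1 change turned for CCNG1 (-0.13), DDB2 (0.014), GADD45A (-0.26), SESN2 (-0.43), FUCA1 (-0.11) and APAF1 (0.30), and the FAL-1 change for FBXO22 (-0.095), SESN2 (1.31), FUCA1 (0.52) and APAF1 (-0.24). With pooled controls the BMI1 change turned for DDB2 (0.0062), GADD45A (-0.076) and APAF1 (0.062), and the FAL-1 change for FBXO22 (-0.010), SESN2 (0.59), FUCA1 (0.25) and APAF1 (-0.006). These turns follow from the difference between the control arrays. Quantile normalization turned DDB2 with BMI1 (0.047) and FUCA1 with FAL-1 (0.055), and cyclic loess DDB2 with BMI1 (0.040); the cause was not tested.

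Leaving out a hairpin array changed the sign of 11 changes, because the hairpins lay on either side of the control. With FAL-1 these ranged from -0.059 to 0.21 for FBXO22, -0.29 to 0.039 for SESN2, -0.37 to 0.075 for CMBL, -0.12 to 0.099 for FUCA1, -0.0044 to 0.18 for PERP, -0.26 to 0.60 for PHLDA3 and -0.061 to 0.82 for TLR3. With BMI1 they ranged from -0.19 to 0.18 for DDB2, -0.77 to 0.14 for STEAP3, -0.37 to 0.015 for APAF1 and -0.075 to 0.998 for TRIM22.

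The hairpin number as a replicate block left the count of genes called at 0. The numbers name hairpins of different targets and do not pair the samples. Across genes, hairpin 1 minus hairpin 2 correlated between the targets at 0.28. With single arrays a condition, small differences of a member cannot be told from the spread between arrays.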
